A study of Mus musculus with 15 samples.

Results

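Hematopoietic stem cells (HSCs) kept in culture with nifedipine were compared with HSCs taken fresh from untreated mice. The comparison used every library with either title, 4 labelled nifedipine and 4 labelled untreated, which is 8 of the 15 libraries in the series. All were RNA sequencing libraries of 100 sorted bone marrow cells from wild type C57BL/6 mice aged 8 to 10 weeks. The untreated cells were sequenced without culture. The nifedipine cells were cultured with the drug and then sorted from the cells that had divided at most 3 times, so cells that had divided more often are not in these libraries. Cultured control HSCs without the drug (n = 3), sorted in the same way, and uncultured HSCs sorted on day 4 after the drug 5-fluorouracil was given to the mice (5-FU, n = 4) are set beside them. The sources used here give no dose of nifedipine, length of culture or medium. Nothing in the labels ties the replicates to separate animals or cultures. The p-values therefore describe library-to-library spread, which may be technical.

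Fresh and cultured cells belong to 2 experiments, so culture, drug and experiment cannot be told apart in this comparison. The contrast of nifedipine with cultured control compares cultured cells with cultured cells and is given beside the main families. It uses the same 4 nifedipine libraries, so the 2 contrasts are not independent. Exon reads ran from 6171730 to 16685285 in untreated and from 17582453 to 22372771 in nifedipine libraries. Exon reads were 24.96% to 26.279% of the read total behind the deposited RPKM values in untreated libraries and 31.842% to 38.38% in nifedipine libraries. A gene was called when edgeR's quasi-likelihood test gave an adjusted p of 0.05 or less and the fold was at least 2. Of 13156 genes tested, 1054 (8.01%) were called higher and 2113 (16.1%) lower in nifedipine, and the median log2 fold change of all genes was -0.01. The groups did not overlap in 7925 of the tested genes (60.2%), called or not, and in 2977 of the 3167 called. Groups that do not overlap were thus common. Higher genes were 33.3% of the calls. Their share was 58.3% when libraries were scaled by the RPKM read total, which moved the median of all genes to 0.33, 44.1% with the trend on exon length removed (median 0.19) and 42.3% with the trends on exon length and GC content removed (median 0.17). With the RPKM read total 2167 of all genes tested were called higher and 1548 lower. The counts were 1363 and 1727 with the exon length trend removed, and 1278 and 1745 with exon length and GC trends removed. List counts under these settings are to be read beside them. Against cultured control, 3298 of 12807 genes (25.8%) were higher and 3098 (24.2%) lower at an adjusted p of 0.05 or less, with no fold threshold. CPM below are exon counts scaled to the size of each library after TMM normalization, so levels of different genes are not comparable.

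HSCs rest in the marrow for long periods and are known for low rates of division, protein synthesis and mitochondrial activity. Removal from the marrow and cytokine culture drive them into the cell cycle and are known to cost them stem cell function. Nifedipine belongs to the dihydropyridines, which close calcium channels of the L type.

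Promoter stretches are shown for 5 families described below, to let the known response elements be seen. In each family the stretch belongs to the called member with the largest fold that held the family's element in the 250 bases before a start site, so these promoters were chosen for holding it. Sequences are from RefSeq, build GRCm38.p6, 5′ to 3′ on the strand of the gene, with matches on either strand in capitals. Slc7a11 lies on the minus strand at chr3:50443614-50443710 and holds TGATGNAA, the element bound by ATF4 with C/EBP. Hmgcs1 lies on the plus strand at chr13:119690164-119690272 and holds TCACNCCAC, a sterol regulatory element. Gclm lies on the plus strand at chr3:122245373-122245481 and holds TGACNNNGC, an antioxidant response element. Ube2c lies on the plus strand at chr2:164769850-164769928 and holds TTTGAA, the cell cycle homology region of mitotic promoters. Ifit3 lies on the plus strand at chr19:34583357-34583466 and holds the interferon-stimulated response element (ISRE) at 2 places.
Slc7a11: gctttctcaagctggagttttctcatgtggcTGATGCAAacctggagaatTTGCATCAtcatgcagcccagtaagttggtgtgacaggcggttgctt
Hmgcs1: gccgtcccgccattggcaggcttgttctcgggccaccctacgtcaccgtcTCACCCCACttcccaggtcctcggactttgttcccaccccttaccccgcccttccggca
Gclm: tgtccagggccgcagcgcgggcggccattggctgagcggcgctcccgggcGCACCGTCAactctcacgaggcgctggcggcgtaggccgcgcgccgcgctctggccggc
Ube2c: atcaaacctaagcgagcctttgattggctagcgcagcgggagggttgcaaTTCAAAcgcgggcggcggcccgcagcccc
Ifit3: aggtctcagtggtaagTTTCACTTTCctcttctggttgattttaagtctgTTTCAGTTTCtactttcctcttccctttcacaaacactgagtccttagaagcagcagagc

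**Figure D1:**
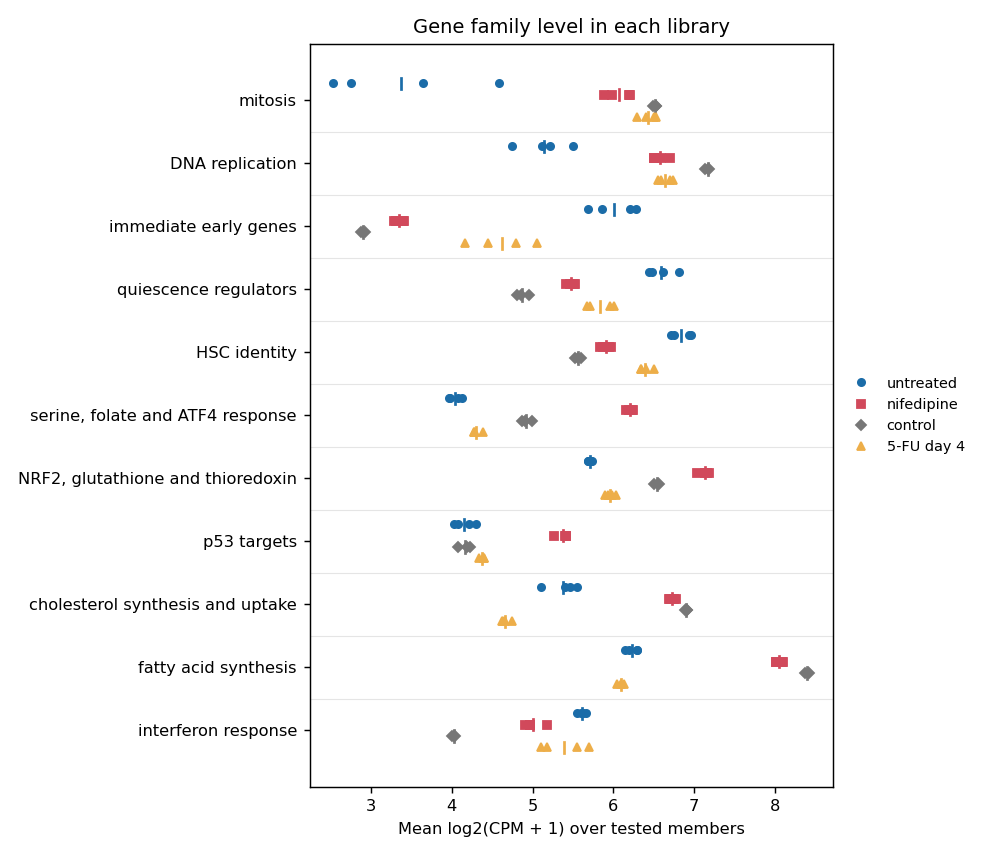
Mean log2(CPM + 1) over the tested members of 11 gene families (x axis) in each library, with 1 point a library and a tick at the group mean. Nifedipine libraries lay above untreated libraries for mitosis (5.89 to 6.21 against 2.53 to 4.58) and below them for immediate early genes (3.28 to 3.40 against 5.69 to 6.28).

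The cell division program was far higher after nifedipine culture than in fresh HSCs. Of 43 mitosis genes, 40 rose and 0 fell, with a median log2 fold change of 2.59. Ube2c, which tags mitotic proteins for degradation, was at 0.967, 1.22, 5.90 and 0.664 CPM in the untreated libraries and at 50.6, 27.7, 22.1 and 56.3 CPM with nifedipine (log2 fold change 4.07 ± 0.58 SE, adjusted p = 7.41e-05). Every nifedipine library was above every untreated library, and untreated replicate 3 was the highest of its group. Mki67, which encodes an antigen of cycling cells (build mm10, chromosome 7, 135689788 to 135716409), was at 156, 57.8, 334 and 80.5 CPM untreated and at 835, 883, 827 and 788 CPM with nifedipine (log2 fold change 2.39 ± 0.42 SE, adjusted p = 0.00038). Replicate 3 again led the untreated group. Cyclin B2 (Ccnb2), the microtubule depolymerase Kif2c and survivin (Birc5) rose by 3.76, 3.58 and 3.52 on the log2 scale. The 3 members that were not called, named after their values were seen, were Kif23 at 0.54, Smc4 at 0.74 and Pttg1 at -0.48. Without untreated replicate 3 the list count was again 40 and 0.

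DNA replication followed, with 41 of 47 genes higher, 0 lower and a median of 1.38. All 8 genes of nucleotide supply rose. Rrm2, the regulated subunit of ribonucleotide reductase, was at 13.2, 6.54, 16.8 and 4.52 CPM untreated and at 137, 169, 179 and 203 CPM with nifedipine (log2 fold change 4.00 ± 0.30 SE, adjusted p = 5.99e-07). Every nifedipine library was above every untreated library. Thymidine kinase Tk1, the helicase loader Mcm10 and the methylation maintenance factor Uhrf1 rose by 2.27, 2.16 and 2.02. Of 14 G1 cyclins, their kinases and E2F factors, 8 rose and 0 fell (median 1.33). The E-type cyclins that fire the G1 to S step led them, Ccne1 at 3.07 and Ccne2 at 2.39, with the E2F repressors E2f8 at 2.66 and E2f7 at 2.65. Cyclin D1 (Ccnd1) was at 36.1, 37.9, 42.2 and 59.6 CPM untreated and at 116, 127, 128 and 119 CPM with nifedipine, and at a mean of 35.7 CPM in cultured control. Cyclin D2 (Ccnd2) and Cdk6 had log2 fold changes of 0.33 and 0.92 and were not called. Against cultured control the same families went the other way: 25 mitosis genes were lower and 4 higher (median -0.48), and 42 replication genes were lower and 0 higher (median -0.62).

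**Figure D2:**
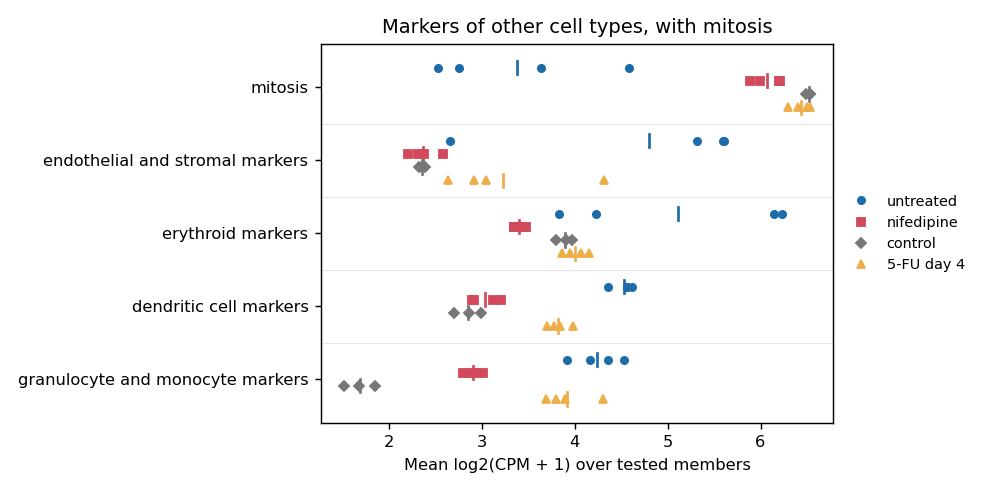
Mean log2(CPM + 1) (x axis) of mitosis genes and of marker lists of other cell types in each library, with a tick at the group mean. Untreated replicate 3 had the highest mitosis level of its group (4.58) and the lowest endothelial and stromal level (2.66).

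Markers of endothelial, stromal and erythroid cells were higher in most untreated libraries than with nifedipine, and uneven among them. Of 21 endothelial and stromal markers, 15 were tested, 11 fell and 0 rose (median -3.49). Their mean level was 5.60, 5.61, 2.66 and 5.32 in the untreated libraries and 2.20 to 2.58 with nifedipine. Cxcl12, a chemokine of marrow stroma, was at 101, 1184, 0.643 and 224 CPM untreated and had 0 reads in all nifedipine libraries, which is at least 5928-fold lower when the nifedipine group is set at 3 reads and at least 2672-fold without untreated replicate 2. Vcam1 also had 0 reads with nifedipine and was at 96.8, 111, 2.98 and 59.9 CPM untreated. In both genes untreated replicate 3 was close to the nifedipine libraries. Erythroid markers, 10 of 18 tested, fell in 6 and rose in 0 cases, with levels of 4.23, 6.23, 3.83 and 6.14 untreated and 3.35 to 3.48 with nifedipine. The beta globin Hbb-bs was at 15.1, 733, 1.34 and 931 CPM untreated and at 4.03, 2.14, 2.68 and 2.14 CPM with nifedipine, so the groups overlapped. The 4 not called, named after their values were seen, were Hbb-bt at -1.21, Car2 at -0.78, Epor at -0.75 and Hemgn at 0.30. Hbb-bt, also a beta globin, had means of 310 CPM untreated and 134 CPM with nifedipine. The alpha globin Hba-a2 was at 1.37, 270, 0.643 and 245 CPM untreated and at 0 reads with nifedipine. In bulk RNA, fewer cells of a type and less RNA per cell cannot be told apart. Igfbp5, Serping1, Ptprb and Cyp4b1, also among the largest falls, had 0 reads with nifedipine and ranged in untreated libraries from 0.876 to 172, 0.993 to 92.5, 3.86 to 68.9 and 2.16 to 27.6 CPM. The calls of Cxcl12, Vcam1, Hba-a2, Hbb-bs, Igfbp5 and Serping1 were lost with limma-voom. Whether other cells account for these falls was not tested. Shisa9 and Klrb1c, in contrast, were even among untreated libraries, at 10.2 to 16.3 and 9.50 to 12.6 CPM, and had 0 reads with nifedipine, at least 301-fold and 285-fold lower.

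All 57 genes of the HSC identity list were tested, which takes reads in 1 of the groups only. The list level was 6.71 to 6.97 untreated and 5.83 to 5.97 with nifedipine, and Hlf, Mecom and Procr were read in every library of both groups. With nifedipine 25 fell and 1 rose, with a median of -0.80. The counts depended on the scaling. With the RPKM read total 6 of 22 transcription factors, 7 of 20 surface genes and 6 of 15 other stem cell genes fell. In these roles 1, 2 and 1 rose. Hlf, whose PAR bZIP protein is enriched in HSCs (chromosome 11, 90336535 to 90390917), was at 1844, 1713, 1655 and 1609 CPM untreated and at 611, 618, 516 and 548 CPM with nifedipine (log2 fold change -1.58 ± 0.07 SE, adjusted p = 8.94e-09). The groups did not overlap. Procr, the surface receptor EPCR used to sort HSCs (chromosome 2, 155751125 to 155755478), was at 103, 86.1, 89.6 and 87.0 CPM untreated and at 34.1, 26.0, 25.5 and 21.9 CPM with nifedipine. Ly6a, which encodes Sca-1, fell by 1.53. Ltb, Clca3a1 and Sult1a1 fell by 4.69, 4.61 and 3.76. Cdh5 fell by 4.12, but it is also an endothelial marker, lost its call with limma-voom and was at 76.3, 3.50, 0.818 and 17.3 CPM untreated. Mllt3, chosen after its values were seen, fell by 2.06.

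Several central HSC regulators changed by less than 2-fold. Mecom, which encodes EVI1, was at 645, 529, 664 and 677 CPM untreated and at 505, 581, 490 and 491 CPM with nifedipine (log2 fold change -0.29 ± 0.08 SE, adjusted p = 0.0092). The groups overlapped, and the sign turned to 0.05 with the RPKM read total, 0.21 with the exon length trend removed and 0.07 with exon length and GC trends removed. Meis1, Gata2, Kit, Fgd5 and Slamf1 had log2 fold changes of -0.35, -0.48, -0.69, -0.89 and -0.71, none called. Aldh1a1, a retinaldehyde dehydrogenase, was the member that rose with TMM scaling, by 1.33. Against cultured control, 35 HSC genes were higher with nifedipine and 9 lower (median 0.55). Hlf, Procr and Ly6a had control means of 213, 6.76 and 8.11 CPM, so nifedipine lay between control and untreated for these 3 genes.

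**Figure D3:**
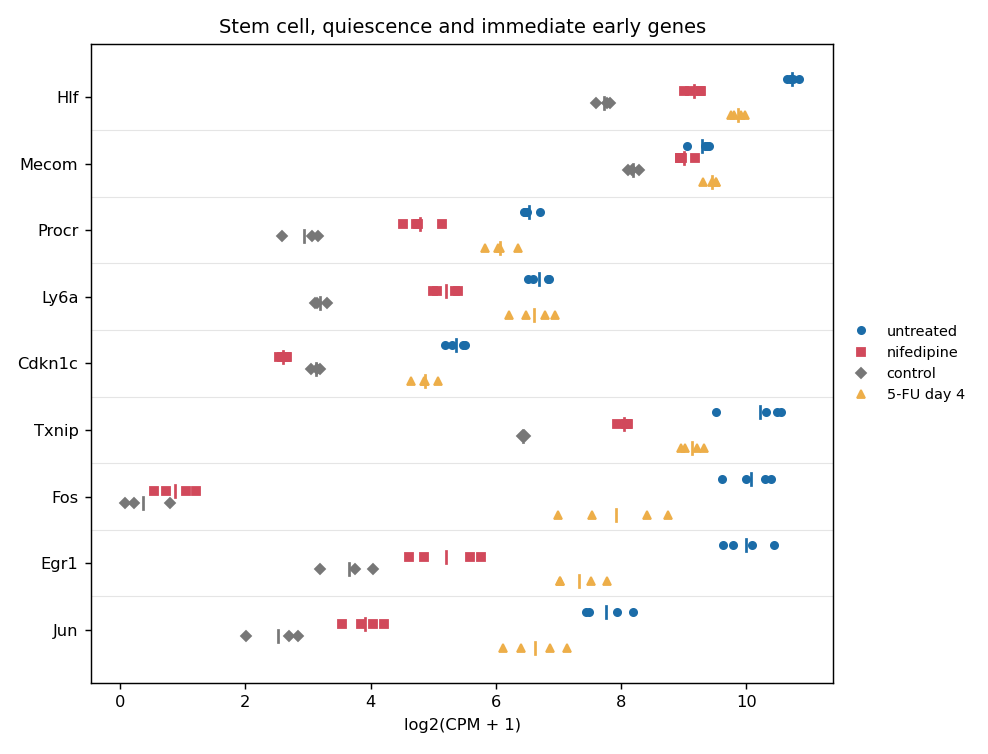
log2(CPM + 1) (x axis) of 9 stem cell, quiescence and immediate early genes in each library, with a tick at the group mean. Hlf, Procr, Ly6a and Txnip with nifedipine lie between control and untreated, while Fos and Jun with nifedipine lie nearer to control than to untreated.

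Genes that hold HSCs out of the cycle were split. Of 26 quiescence regulators, 10 fell and 3 rose (median -0.45), and against control 17 were higher and 1 lower (median 0.48). Among the falls, Klf2, Btg2, Egr1, Nr4a1 and Nr4a2 are also on the list of immediate early genes below. The falls of these lists are thus not separate results for those genes. Cdkn1c, the CDK inhibitor p57 of resting HSCs (chromosome 7, 143458339 to 143461073), was at 35.6, 38.5, 43.4 and 44.3 CPM untreated and at 5.02, 5.34, 5.25 and 4.78 CPM with nifedipine (log2 fold change -2.99 ± 0.12 SE, adjusted p = 7.97e-09). It was the 1 member lower than control, whose mean was 7.76 CPM (adjusted p = 0.0279). Cdkn1a, the CDK inhibitor p21 (chromosome 17, 29090979 to 29100722), went up instead, from 2.39, 2.89, 8.53 and 13.2 CPM to 60.4, 71.8, 60.7 and 69.4 CPM (log2 fold change 3.22 ± 0.40 SE, adjusted p = 2.53e-05). Cdkn2c and Rbl1 were the other members that rose, by 1.22 and 1.39, and Cdkn1b was not called at -0.47. Txnip, an inhibitor of glucose uptake and thioredoxin, fell from 1273, 1507, 733 and 1441 CPM to 271, 273, 275 and 243 CPM, with a control mean of 85.9 CPM.

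The immediate early genes, which switch on within minutes of a signal, had a median of -2.71, the lowest of the whole lists other than cell type markers. Of 36 tested members 29 fell and 2 rose. Fos (chromosome 12, 85473901 to 85477269) was at 1018, 779, 1345 and 1260 CPM untreated and at 0.663, 1.31, 1.08 and 0.448 CPM with nifedipine (log2 fold change -10.32 ± 0.26 SE, adjusted p = 4.21e-10). Fosb, Egr3, Nr4a1, Klf2 and Egr1 fell by 11.22, 9.02, 7.18, 5.98 and 4.78. Jun fell by 3.97, from 293, 179, 172 and 243 CPM to 13.4, 17.5, 10.6 and 15.5 CPM. The 2 that rose were the phosphatase Dusp4, by 1.36, and the AP-1 member Fosl1, by 4.15, the second named after its value was seen. Klf6 was not called at -0.89. Against cultured control 16 members were higher and 0 lower (median 0.47), among them Egr1 at 1.66 and Jun at 1.53. Of 20 genes of NF-kB and inflammation, 9 fell and 2 rose, and against control 7 of 17 were higher and 0 lower. The inhibitor Nfkbia fell by 2.50 and the chemokine Ccl4 by 2.72, while Tnf and Tnfaip2 rose by 2.16 and 1.31.

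Amino acid supply genes and ATF4 targets were higher after nifedipine culture. ATF4 is the transcription factor of the integrated stress response, and its known targets include enzymes of serine and folate metabolism and amino acid carriers. Of 35 members tested, 27 rose and 0 fell (median 1.93). Aldh1l2, a mitochondrial folate enzyme (chromosome 10, 83487447 to 83534151), was at 0.0569, 0.761, 0.292 and 0.598 CPM untreated and at 92.9, 81.3, 67.4 and 78.6 CPM with nifedipine (log2 fold change 7.77 ± 0.29 SE, adjusted p = 4.49e-09). Its control mean was 1.73 CPM, so it was low in both reference groups. Slc7a11, the cystine carrier xCT (chromosome 3, 50364936 to 50499087), was at 2.62, 2.59, 0.351 and 4.85 CPM untreated and at 410, 521, 465 and 437 CPM with nifedipine (log2 fold change 7.49 ± 0.34 SE, adjusted p = 1.44e-08), with a control mean of 43.4 CPM. Chac1, which degrades glutathione, the arginine carrier Slc7a3 and the mitochondrial folate enzyme Mthfd2 rose by 5.65, 5.47 and 4.70. Asns, asparagine synthetase, rose, from 13.7, 12.3, 21.9 and 15.5 CPM to 229, 211, 239 and 221 CPM, and was chosen after its values were seen.

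By role, 8 of 9 amino acid carriers rose (median 3.10), 8 of 10 serine and folate enzymes (median 1.70) and 11 of 16 ATF4 targets (median 1.62). Atf4 itself and Ddit3, both named after their values were seen, were not called at 0.70 and 0.15. Against cultured control 26 members were higher and 3 lower (median 0.86). The roles had unlike values there: the median was 1.69 for ATF4 targets, with 14 higher and 0 lower, and -0.06 for serine and folate enzymes, with 4 higher and 3 lower. Psat1, an enzyme of serine synthesis named after its values were seen, rose by 2.81 against untreated and was at -0.07 against control (adjusted p = 0.448).

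**Figure D4:**
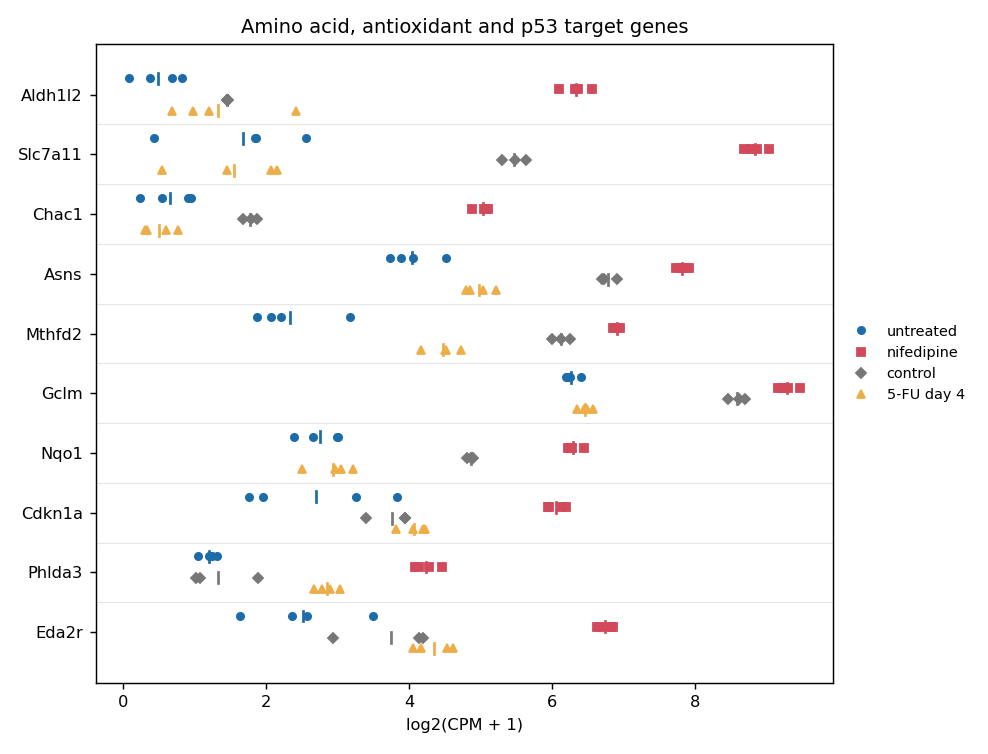
log2(CPM + 1) (x axis) of 10 amino acid, antioxidant and p53 target genes in each library, with a tick at the group mean. Nifedipine libraries lie above all untreated, control and 5-FU libraries for each gene drawn.

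Antioxidant genes rose with them. NRF2 is the transcription factor of the response to oxidants and electrophiles, and the list holds its known targets for glutathione and thioredoxin. Of 24 members, 14 rose and 0 fell (median 1.08). Gclm, a subunit of the enzyme that limits glutathione synthesis (chromosome 3, 122245557 to 122267215), was at 75.2, 83.4, 72.4 and 72.9 CPM untreated and at 595, 569, 626 and 702 CPM with nifedipine (log2 fold change 3.04 ± 0.08 SE, adjusted p = 4.21e-10), with a control mean of 385 CPM. Nqo1, a quinone reductase, rose by 3.75 and the sulfiredoxin Srxn1 by 2.20. Hmox1, heme oxygenase, was at 22.5, 12.8, 4.62 and 12.7 CPM untreated, at 53.2, 55.1, 53.7 and 63.4 CPM with nifedipine and at a mean of 3.55 CPM in control. It was chosen after its values were seen. Slc7a11, described above, is also on the NRF2 list. Against control 11 members were higher and 4 lower (median 0.12).

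Targets of p53 were higher against both references. Of 27 members, 16 rose and 2 fell against untreated (median 1.18), and 23 were higher and 1 lower against control (median 1.07). Eda2r, a death domain receptor, was at 2.11, 10.2, 4.15 and 4.92 CPM untreated and at 114, 97.9, 101 and 112 CPM with nifedipine (log2 fold change 4.47 ± 0.30 SE, adjusted p = 2.57e-07), with a control mean of 13.4 CPM. Phlda3 and Gtse1 rose by 3.78 each, and the pro-apoptotic Bax by 2.81. Gtse1 was at 3.87, 0.609, 5.73 and 0.531 CPM untreated, highest in replicate 3 as for Ube2c and Mki67. Named for overlap between lists, Ckap2 is also a mitosis gene and Sesn2 an ATF4 target of the lists above. Cdkn1a, Sesn1 and Btg2 are also quiescence regulators, and Bax, Bbc3 and Pmaip1 are also on the BCL2 family list. The lists are thus not separate results for these genes. Plk2 and Btg2, the 2 that fell, are also induced by immediate early signals and fell by 1.98 and 3.87. Mdm2, named after its values were seen, was not called at 0.47. Among 22 tested genes of the BCL2 family and caspase pathway, 5 rose and 2 fell, with the survival gene Bcl2l1 up by 1.80 and Mcl1 down by 1.05. Mcl1 was at -0.99 without untreated replicate 3 and at -0.70 with the RPKM read total, both below 2-fold. The other rises included Bax, Pmaip1 at 2.49, with groups that overlapped, and Apaf1 at 1.30, and the other fall was Bmf at -1.59.

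Lipid synthesis was high in culture with or without the drug. Of 20 enzymes of cholesterol synthesis 19 rose and 0 fell (median 2.20), and the remaining enzyme, Mvk, was just under the fold threshold. Hmgcs1, an early enzyme of the pathway (chromosome 13, 119690351 to 119708260), was at 86.8, 62.7, 96.9 and 78.0 CPM untreated and at 790, 794, 831 and 876 CPM with nifedipine (log2 fold change 3.33 ± 0.11 SE, adjusted p = 2.44e-09). Its control mean was 813 CPM, and the difference from control was 0.02 (adjusted p = 0.812). Abca1, which exports cholesterol, and Mylip, a ubiquitin ligase of cholesterol uptake, fell. Abca1 went from 209, 203, 133 and 251 CPM to 12.9, 9.50, 10.1 and 4.78 CPM (log2 fold change -4.41 ± 0.27 SE, adjusted p = 1.08e-07), and its control mean was 51.8 CPM, 2.47 log2 units higher than with nifedipine. Over the 31 genes of cholesterol synthesis and uptake 8 were higher and 11 lower than in control (median -0.14). Of 12 genes of fatty acid synthesis 11 rose and 0 fell (median 1.44), and against control 2 were higher and 8 lower (median -0.45). The desaturase Scd1 rose by 4.86, from 12.1, 19.9, 10.4 and 18.9 CPM to 389, 429, 443 and 471 CPM, and its control mean was 846 CPM.

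Genes of mitochondrial energy supply, the proteasome and ribosome biogenesis were in part higher than in fresh cells, and most of them were lower than in cultured control. Of 76 subunits of oxidative phosphorylation 16 rose and 0 fell (median 0.73), and 0 were higher and 60 lower than in control (median -0.51). The count depended on the scaling: 5 rose with the exon length trend removed and 48 with the RPKM read total. In these settings 1363 and 2167 of all 13156 genes were called higher. Cox5a and Ndufa4 rose by 1.53 and 1.39, and were at 0.95 and 0.67, below 2-fold, with exon length and GC trends removed. Of 31 proteasome subunits 12 rose and 0 fell (median 0.94), and 29 rose with the RPKM read total. Against control 30 subunits were lower. Of 36 genes of MYC targets and ribosome biogenesis 7 rose and 0 fell (median 0.72), with 21 rising under the RPKM read total, and 35 were lower than in control (median -0.79). Myc was at 80.2, 81.0, 81.3 and 55.7 CPM untreated and at 80.8, 79.9, 107 and 88.5 CPM with nifedipine, which overlapped and was not called. In glycolysis 10 of 26 genes rose and 2 fell, with Pgk1 at 1.85 and Pkm at 1.75 among the rises. Of the kinases that inhibit pyruvate dehydrogenase, Pdk4 and Pdk2 fell by 3.61 and 1.68. Pdk3 rose by 1.03 and Pdk1 was not called at -0.28, both named after their values were seen. Against control 5 glycolysis genes were higher and 11 lower (median -0.09). Of 73 cytosolic ribosomal protein genes 0 rose and 0 fell at 2-fold, and against control 12 were higher and 11 lower (median 0.02). Their median against untreated was 0.14, and -0.11 with the exon length trend removed and -0.08 with exon length and GC trends removed.

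**Figure D5:**
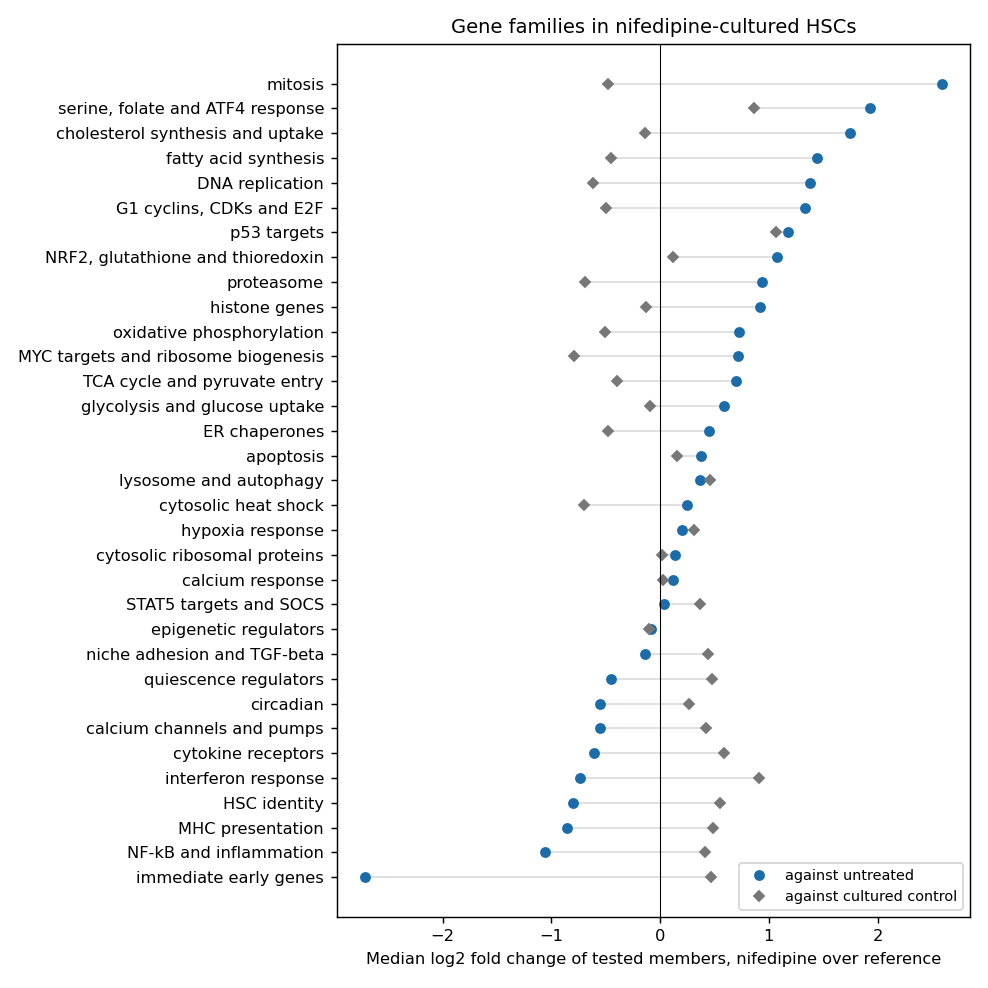
Median log2 fold change (x axis) of the tested members of each gene family, nifedipine over untreated (circles) and nifedipine over cultured control (diamonds), which share the nifedipine libraries. Mitosis was at 2.59 and -0.48, p53 targets at 1.18 and 1.07, and HSC identity at -0.80 and 0.55.

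Voltage-gated calcium channels, the family that holds the targets of the drug, were in part lower after nifedipine culture. Of 19 genes of channel subunits and the channel regulator Gem, 11 were tested, 7 fell and 1, Gem, rose (median -1.76). With the exon length trend removed 5 fell (median -1.05), and with exon length and GC trends removed 4 fell (median -0.98). Against cultured control 9 were tested, and 2, Gem included, were higher with nifedipine and 0 lower (median 0.58). The family level was 2.94 to 3.36 untreated, 2.19 to 2.41 with nifedipine and 1.91 to 1.99 in control, so drug-free culture was low as well. The L-type pore subunits Cacna1c and Cacna1d are the direct targets of dihydropyridines. Cacna1d (chromosome 14, 30039941 to 30491156) was at 12.6, 9.28, 8.88 and 10.7 CPM untreated and at 0.900, 1.66, 0.154 and 0.299 CPM with nifedipine (log2 fold change -3.80 ± 0.53 SE, adjusted p = 6.41e-05), with a control mean of 0.561 CPM. Cacna1c was at 7.34, 9.13, 5.78 and 8.97 CPM untreated and at 2.37, 2.14, 2.47 and 2.19 CPM with nifedipine. With the exon length trend removed Cacna1c was just under 2-fold and no longer called. Neither gene passed the test against control (adjusted p = 0.692 and 0.233). The beta subunit Cacnb2, named after its values were seen, was not called at -0.19, with the sign turned to 0.16 by the RPKM read total and to 0.18 by removing the exon length trend. Gem, a small GTPase that binds channel beta subunits (chromosome 4, 11704447 to 11714993), was at 36.5, 18.3, 27.0 and 35.9 CPM untreated and at 523, 436, 414 and 468 CPM with nifedipine (log2 fold change 3.93 ± 0.17 SE, adjusted p = 1.18e-08). Its means were 145 CPM in control and 923 CPM after 5-FU. Over all 39 tested channels and pumps 11 fell and 2 rose, and the median of -0.55 became 0.04 with the exon length trend removed. Of 20 genes of calmodulin, calcineurin and NFAT 1 fell, Nfatc2, by 1.03, and it was below 2-fold without nifedipine replicate 2 (-0.95) and with the RPKM read total (-0.68).

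Part of the immune genes were lower than in fresh cells. Of 39 interferon response genes 13 fell (8 with the RPKM read total) and 2 rose (median -0.74), and 34 were higher and 2 lower than in control (median 0.91). Ifi44 was at 123, 126, 141 and 124 CPM untreated, at 57.8, 33.1, 27.9 and 41.4 CPM with nifedipine and at a mean of 5.49 CPM in control. Nifedipine thus lay between the other groups for this gene. Iigp1, Rsad2 and Ifit1 fell by 1.95, 1.57 and 1.54, and Bst2 and Ifi27l2a, the second named after its value was seen, rose by 1.33 and 1.70. Ifi27l2a was no longer called without nifedipine replicate 4, at 1.15. Genes of MHC class II fell in 6 of 8 cases (median -3.76) and of class I in 3 of 12 (median -0.39). H2-Aa, a class II chain, was at 18.9, 46.6, 24.7 and 55.7 CPM untreated and had 0 reads with nifedipine, at least 871-fold lower, and Cd74 fell by 7.82. Dendritic cell markers, 6 of 11 tested, were split. Flt3, Clec9a and Zbtb46 had log2 fold changes of -5.71, -4.48 and -2.18, and Bst2 rose as above. Tcf4 and Xcr1, named after their values were seen, were not called at -0.03 and -0.15. The list level was 4.36 to 4.62 untreated and 2.89 to 3.21 with nifedipine. The part of dendritic cells in the class II result was not tested. Of 24 cytokine receptors 9 fell and 2 rose, and against control 17 were higher and 2 lower (median 0.59). Csf3r fell by 1.93, and the shared beta chains Csf2rb and Csf2rb2 rose by 1.84 and 1.08.

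Genes of adhesion and signalling from the niche were split. Of 35 tested genes of retention, adhesion, TGF-beta and BMP, 10 fell and 3 rose. Their median was -0.14, but 0.20 when libraries were scaled by the RPKM read total, 0.18 with the exon length trend removed and 0.17 with exon length and GC trends removed. Id1, a helix-loop-helix target of BMP signalling, was at 1.93, 3.96, 1.34 and 0.465 CPM untreated and at 33.9, 30.5, 41.4 and 45.5 CPM with nifedipine (log2 fold change 4.47 ± 0.39 SE, adjusted p = 1.75e-06). The groups did not overlap. Tgfb1 also rose, by 1.91, while the integrin Itga9 fell by 4.09. The cadherin Cdh2 fell by 2.64, but it was at 7.17, 29.8, 2.10 and 7.37 CPM untreated and at 2.84, 2.37, 1.60 and 0.448 CPM with nifedipine, so the groups overlapped, and its call was lost with limma-voom. Of 12 targets of STAT5, which cytokine receptors activate, 3 rose (Id1, Pim2 at 3.18 and Bcl2l1). The 3 that fell were Bcl6 at -3.12, Socs3 at -1.28, with groups that overlapped, and Cish at -1.02. The median of the 12 was 0.04, and -0.03 without nifedipine replicate 3. Platelet and megakaryocyte markers, 15 of 18 tested, rose in 4 cases and fell in 6. The adhesion receptor Selp rose by 3.83, with Cd9 at 1.85, Plek at 1.23 and Itgb3 at 1.08, and their list median was -0.25, but 0.10 when scaled by the RPKM read total and 0.08 with exon length and GC trends removed.

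Further sets are given by count. Among all genes tested 8.01% were called higher and 16.1% lower. Counts near or under these shares do not set a list apart from all genes. The shares hold for the main scaling only. With the RPKM read total 2167 of the 13156 genes were higher and 1548 lower. Among histone genes expressed with DNA replication, 33 were tested, 12 rose and 0 fell, and the number that rose was 18 without untreated replicate 3. Their transcripts largely lack a poly(A) tail and the genes are near-identical copies, so the counts are uncertain. Of 15 clock genes 5 fell, Per1 by 3.54, Per2 by 1.59, Per3 by 1.28, Dbp by 3.03 and Npas2 by 1.61, and the repressors Bhlhe40 and Bhlhe41 rose by 1.87 and 2.73. Of 20 epigenetic regulators 3 rose (Uhrf1, Dnmt1 at 1.30 and Ezh2 at 1.10) and 3 fell (Cbx7 at -2.35, Kdm6b at -1.47 and Tet1 at the threshold). Their median was -0.08 and turned to 0.26 with the RPKM read total and 0.28 with the exon length trend removed. Of 18 hypoxia genes Bhlhe40, Vegfa and Egln3 rose, the last 2 by 1.22 and 1.15, and Epas1 fell by 1.63. Of 25 enzymes of the TCA cycle and pyruvate entry Idh3a, Cs and Mdh2 rose, by 1.38, 1.16 and 1.06, while 14 rose with the RPKM read total and 17 were lower than in control. The count of chaperones depended on the scaling. Of 20 in the endoplasmic reticulum Sdf2l1, Edem1 and Calr rose by 1.44, 1.18 and 1.16 and Dnajb9 fell by 1.81. Of 16 in the cytosol Hspa1b, with groups that overlapped, and Dnajb1 fell by 2.28 and 1.60. With the RPKM read total 8 of the first and 4 of the second set rose, and against control 15 and 14 were lower. Of 39 genes of lysosome and autophagy Ctsd rose, by 1.24, while 8 rose with the RPKM read total, and 25 were higher than in control. The calls of Cish, Itgb3, Tet1, Jchain and Cd79b were lost when single libraries were left out, and those of Socs3, Kdm6b, Per3 and Mdh2 under other scalings. Among markers of other blood cells, 8 of 22 were tested for granulocytes and monocytes, and 6 fell. For B cells 3 of 14 were tested and all fell (Jchain, Cd22 and Cd79b). For T and NK cells 3 of 14 were tested and 2 fell (Cd4 and Nkg7). For mast cells 5 of 16 were tested and Alox5 rose. A marker read in 1 group only can pass the filter, so these counts lean to the group where it is read. Cd22, Jchain and Cd4 were at means of 1.51, 1.70 and 3.44 CPM untreated and 0.459, 0.347 and 0.175 CPM with nifedipine.

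The response elements were searched on both strands of RefSeq windows from 250 bases before to 50 after a start site, and a gene counted when any of its windows held the letters. The ISRE was in 17 of 31 interferon genes with a window (54.8%) and in 3.73% of the 10026 tested genes with one. TTTGAA was in 24 of 35 mitosis genes (68.6%, against 14.5%), and TGATGNAA in 9 of 30 genes of the ATF4 list (against 2.87% of tested genes). TTTCCCGC, the E2F site, was in 6 of 37 replication genes (16.2%, against 2.36%), TTCNNNGAA, the STAT site, in 4 of 9 STAT5 targets (44.4%, against 8.34%) and TGACNNNGC in 7 of 20 genes of the NRF2 list (35.0%, against 17.2%). TCACNCCAC was in 1 of 22 cholesterol genes (4.55%, against 1.42%), which is Hmgcs1. The loose form of the SRF site was in 26 of 30 immediate early genes (86.7%, against 88.5%). After these values were seen, 3 more searches were made: the stricter CArG box in immediate early genes (10.0%, against 1.57%), TGACGTCA in the same genes (13.3%, against 3.54%) and CCAAT in mitosis genes (77.1%, against 43.1%). TTTGAA can overlap TTCNNNGAA. List members were counted whether tested or not, while the shares beside them are of tested genes. Several lists hold known targets of the factor, so a higher share there does not test its part in these data. These shares describe letters in a window and show no binding.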

How the data were processed

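RNA sequencing libraries of 100 sorted mouse HSCs were grouped by their titles. Per the file headers, each deposited table holds the count of exon reads per feature and an RPKM value that the authors computed. The sources used here name no aligner or counting program. Per the submitters' processing notes, reads were placed on mm10. Of 48737 features, 4537 scaffold copies of 1923 genes were added up, which gave 46123 genes. All 37 mitochondrial features had 0 reads. Counts were tested with edgeR 4.0.16 in R 4.3.3 (TMM, filterByExpr, quasi-likelihood F test, two-sided, Benjamini-Hochberg), and exon lengths and a read total were recovered from the deposited RPKM values. The fit was tested on simulated data. Alternatives used DESeq2 1.42.0, limma-voom (limma 3.58.1), other filters, scalings and thresholds. Replicate numbers showed no clear pairing of libraries.

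The comparison, the 41 gene lists (1191 entries, 2 symbols not matched) and the rules were chosen with earlier results of these data known. Genes were named by rule: the 12 largest called changes in each direction at 10 CPM or more with groups that do not overlap, up to 4 called members of each list with up to 2 of the opposite call, and a set list of genes. Others are marked in the text, except members of counts of 5 or fewer, which were named after their values were seen. Promoters were searched for 8 elements listed at the start and 3 added after values were seen, 11 searches in all. The first pass took only the first window of each gene, and the change to any window was also made after those values were seen. With first windows only, the shares were 26.7% for the ATF4 list, 30.0% for the NRF2 list and 83.3% for the loose SRF site in immediate early genes, and the other 5 elements listed at the start gave the same share in their lists. Floors cover counting error only. List levels are the mean log2(CPM + 1). Some members are not reported here.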

Additional observations from a re-analysis of the deposited data

Results flagged for a closer look

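In 335 groups of 4 libraries (list levels as mean log2(CPM + 1), gene levels as CPM), 19 had a library whose gap to the others passed Dixon's 95% critical value of 0.829 for 4 samples, and chance gives about 1 in 20. Among list levels, untreated replicate 3 was low for endothelial and stromal markers at 2.66, with the others from 5.32 to 5.61. Nifedipine replicate 2 was low for oxidative phosphorylation at 5.79 and for cytosolic heat shock at 7.03, and it also had the lowest exon share of its group, 31.842%. Nifedipine replicate 3 was low for p53 targets at 5.26, and untreated replicate 4 was high for apoptosis genes at 5.03.

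Among genes in untreated libraries, replicate 3 was high for E2f7 at 26.9 and Ifi44 at 141.0 and low for Cdkn1b at 46.3. Replicate 4 was high for Ccl4 at 28.5 and low for Myc at 55.7. Replicate 1 was high for Csf2rb2 at 47.9, and replicate 2 for Npas2 at 11.7. In nifedipine libraries, replicate 1 was high for Iigp1 at 51.0 and low for Itgb3 at 100.0. Replicate 2 was high for E2f7 at 90.2 and for Mecom at 581.0. Replicate 4 was low for Txnip at 243.0 and Cacnb2 at 53.7 and high for Per2 at 19.2.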

How the results depend on the processing

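Of 1054 higher and 2113 lower calls, the RPKM read total gave 2167 higher. Without a fold threshold there were 4350 higher and 4223 lower, with glmTreat at 2-fold 644 and 1216, and with a mean of at least 10 CPM 1221 lower. Leaving out single libraries gave 1021 to 1202 higher and 2003 to 2366 lower, and against control 2874 to 3109 and 2729 to 3026. The cause of these differences was not tested, except that a minimum of 10 CPM tests fewer genes.

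With the replicate number as a block, 1073 were higher and 2051 lower, and against control 3196 and 3087. Correlations of same-numbered libraries ran from -0.05991 to 0.0985, and those of the others from -0.1022 to 0.09913. No clear pairing by number was seen, but values this close to each other cannot exclude it.

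Of 164 genes named, 111 had the same call in every alternative. List medians that turned sign were STAT5 targets (-0.03 without nifedipine replicate 3, and up to 0.17 over the other left-out libraries), ribosomal proteins (-0.11 without the length trend, -0.08 without length and GC trends), calcium channels (0.04 without the length trend), niche genes (0.20 with the RPKM read total, 0.18 and 0.17 without those trends), megakaryocyte markers (0.10 and 0.08 with the RPKM read total and without both trends) and epigenetic regulators (0.26 with the RPKM read total, 0.28 and 0.20 without the trends, 0.02 with features as deposited). Mecom turned to 0.05, 0.21 and 0.07 with the RPKM read total and without length or both trends, and Cacnb2 to 0.16 and 0.18 in the first 2 of these. The trends on exon length and GC together, and the lower bounds of fold without single libraries, were added after seeing the data. Depth was lowest in untreated replicate 2, at 6171730 exon reads, which limits genes of few reads.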
